A study of Mus musculus with 9 samples.

Results

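The genes described here are 10 costimulatory and coinhibitory receptors of T cells, namely Cd28, Ctla4, Icos, Pdcd1, Btla, Cd160, Lag3, Tigit, Cd27 and Tnfrsf9. They were taken by symbol from a table of 24060 genes, in which all 10 were found, and all 10 were among the 12115 genes that reached a value above 1 TPM in at least 1 sample and were tested. TPM is a transcript level that takes account of a gene's length and gives every sample the same total, so that levels of different genes can be set side by side. The samples are RNA-seq libraries of CD8 T cells from the spleens of 3 transnuclear mouse strains, Rop7-I, Rop7-II and Rop7-III, with 3 biological replicates each.

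A transnuclear strain is cloned from the nucleus of 1 T cell, so every strain carries the rearranged T cell receptor of that cell. All 3 receptors recognise the same peptide of the Toxoplasma protein Rop7 on the MHC class I molecule H-2Ld and differ in their affinity. The strains were kept on a BALB/c background, and the study gives no age or sex for these animals. Its figure legends describe the profiled cells of all 3 clones as homozygous. Each clone is 1 line, so a difference between receptors and any other difference between lines cannot be told apart. No group was stimulated with antigen. In all 3 groups splenocytes rested overnight with 10 ng/ml of IL-2. Cells positive for CD3, CD8 and the H-2Ld-Rop7 tetramer were then isolated by flow cytometry at a stated purity of 90 to 95%, and 200 ng of RNA went into each polyA library.

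A T cell responds fully only when its antigen receptor and costimulatory receptors are engaged together. CD28 is the main costimulatory receptor of resting T cells and binds CD80 and CD86 on antigen-presenting cells, whereas CTLA-4 binds the same ligands more tightly and restrains the response. Naive CD8 T cells are known to carry CD28 and CD27, while CTLA-4, PD-1, LAG-3, TIGIT and 4-1BB, the product of Tnfrsf9, appear mainly after activation.

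The summed level of 6 genes that define CD8 T cells (Cd3d, Cd3e, Cd3g, Cd247, Cd8a and Cd8b1) was 5648 to 5808 TPM in Rop7-I, 5889 to 6255 TPM in Rop7-II and 5591 to 5753 TPM in Rop7-III. Rop7-II lay above both other clones without overlap, and Cd8a was called lower in Rop7-III (-0.39, limma adjusted p = 2.051e-04) and in Rop7-I (-0.22, limma adjusted p = 0.00640) than in Rop7-II. The library of Rop7-II replicate 1 stood apart. Its 12 B-cell markers summed to 877 TPM against 64.7 to 392 in the other 8 samples, and all 12 were highest there. Its 10 markers of myeloid and dendritic cells summed to 593 TPM against 25.6 to 200, with 9 of 10 highest there, and its Cd4 level was 6.75 TPM against at most 0.94. The B-cell sums were 155 to 392 TPM in Rop7-I, 82.2 to 877 in Rop7-II and 64.7 to 130 in Rop7-III. The myeloid sums were 39.2 to 108 TPM in Rop7-I and 25.6 to 56.85 in Rop7-III. The value of 200 TPM was that of Rop7-II replicate 3, which stays in the fits without replicate 1. In such bulk samples fewer cells of a type and less RNA per cell cannot be told apart. Receptor differences from Rop7-II are therefore given with and without Rop7-II replicate 1, and for further genes the number of calls that remained.

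The 10 receptors covered a wide range of levels. Cd27 was highest, with a mean of 502 TPM over the 9 samples, at the 99.0 percentile of all genes in the table. Cd28 followed at 129 TPM (94.2 percentile), Icos at 38.2 TPM (79.6 percentile), Ctla4 at 25.8 TPM (74.3 percentile) and Btla at 12.7 TPM (66.7 percentile). Tigit at 2.02 TPM and Cd160 at 1.39 TPM were low, and Tnfrsf9 at 0.933, Pdcd1 at 0.768 and Lag3 at 0.627 TPM had means under 1. The gaps between Cd27 and Cd28, between Cd28 and Icos and between Btla and Tigit were clear, since the lowest sample of the higher gene lay above the highest sample of the lower gene. Other neighbours in this order had overlapping ranges. Icos was above Ctla4 in 8 of 9 samples, Ctla4 above Btla in all 9, and Tnfrsf9 above Pdcd1 in only 3 of 9.

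**Figure D1:**
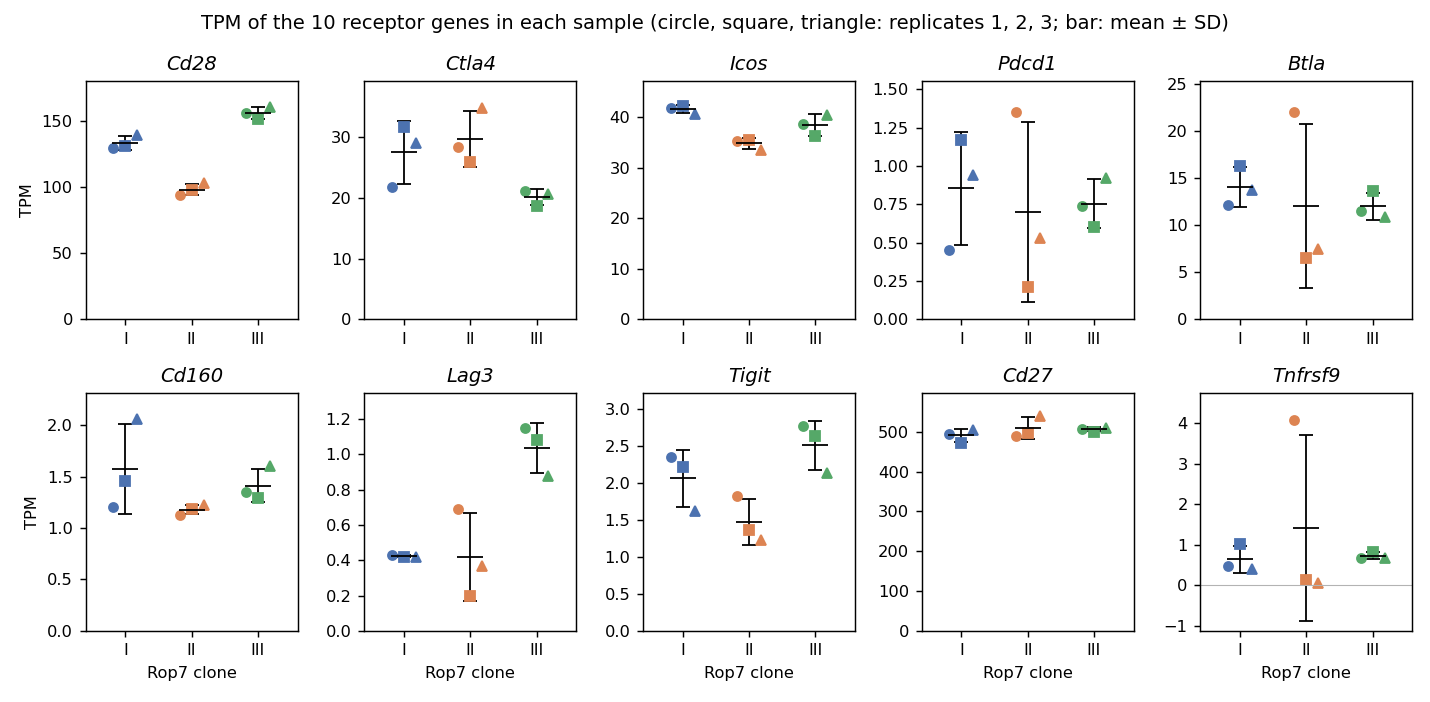
Level in TPM (y axis) of the 10 receptor genes in the 9 samples, by clone on the x axis, each point 1 sample, with the mean and SD of each clone drawn as a bar. Cd28 differs between all clones without overlap, with 93.6 to 102 TPM in Rop7-II, 129 to 139 in Rop7-I and 151 to 160 in Rop7-III, while 1 sample of Rop7-II stands far above the other 2 for Btla and Tnfrsf9.

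To ask whether the clones differ in these receptors, each of the 3 pairs was examined in limma, a linear model fitted to log2(TPM + 1) of all tested genes, and a gene was called at an adjusted p under 0.01. The pairs share samples and are not independent of each other. Between Rop7-III and Rop7-II, 1 of the 10 receptors was called (Cd28, higher in Rop7-III), where 12.3% of all tested genes were called and 6.39% were called in that direction. Between Rop7-III and Rop7-I none was called by limma, where 4.85% of all tested genes were called. At an unadjusted p under 0.05 there were 4 (Cd28, Ctla4, Icos and Lag3) in that pair against 28% of all genes, 5 in Rop7-III against Rop7-II (37.8%) and 2 in Rop7-I against Rop7-II (32.1%). Lag3 was among these in both pairs with Rop7-III, the only clone through which it passed the filter. Between Rop7-I and Rop7-II, 2 were called (Cd28 and Icos, both higher in Rop7-I), where the share of all tested genes was 7.53%, and 3.67% in that direction. An F test across the 3 clones called 1 receptor, Cd28, against 14.1% of all genes. At an adjusted p under 0.05 the numbers were 3, 1 and 2 in the same order of pairs and 3 in the F test, where 25.1%, 13.1%, 17.9% and 30% of all genes passed. No receptor was called with at least a 2-fold difference, as were 1.7%, 1.06% and 0.949% of all genes. With 10 receptors, counts of 0 to 2 at the limit of 0.01 are near what these backgrounds would give.

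Clones were also compared by whether their samples overlapped. Between Rop7-III and Rop7-II the samples of 6 receptors did not overlap, with 5 above and 1 below, a pattern that 40.7% of all tested genes had (19.6% above and 21.2% below). For Rop7-III and Rop7-I there were 4 such receptors, 2 in each direction, against 38.2% of all genes (18.4% above and 19.7% below). For Rop7-I and Rop7-II there were 2, both higher in Rop7-I, against 35% of all genes (16.5% in that direction). The median log2 difference of the 10 receptors was 0.14 for Rop7-III against Rop7-II, -0.01 for Rop7-III against Rop7-I and 0.19 for Rop7-I against Rop7-II, where the medians of all tested genes lay within 0.02 of 0. Lag3 entered the test only through Rop7-III samples above 1 TPM, so the filter favoured a higher level there in advance. Pdcd1 and Tnfrsf9 entered through samples of Rop7-I and Rop7-II.

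Cd28 showed the clearest difference between clones in transcript level. On GRCm38 (mm10) the gene lies on chromosome 1 from 60716800 to 60773359, on the plus strand. Its level was 129, 131 and 139 TPM in Rop7-I, 93.6, 97.6 and 102 TPM for Rop7-II, and 156, 151 and 160 TPM in Rop7-III. The 3 clones formed separate groups, with Rop7-II lowest and Rop7-III highest. Means were 133 ± 5.51, 97.9 ± 4.43 and 156 ± 4.44 TPM (SD, n = 3 each). These values are of RNA. At the protein level, the study reported that naive cells of the clones did not differ in CD28, CD8α, CD3ε or TCRβ. That staining was of splenic tetramer-positive cells, with no zygosity or overnight culture stated for it. The RNA came from homozygous cells after the overnight rest with IL-2, so the conditions may differ.

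For Cd28 the log2 difference of Rop7-III over Rop7-II was 0.66 with a standard error of 0.04 (95% interval 0.57 to 0.76, limma adjusted p = 1.726e-05), a 1.59-fold level. It ranked 48 of the 12115 tested genes by p. Rop7-I exceeded Rop7-II by 0.44 (0.34 to 0.54, limma adjusted p = 2.606e-04), a 1.36-fold level. Rop7-III exceeded Rop7-I by 0.23 (0.13 to 0.32, limma adjusted p = 0.0107), which misses the limit of 0.01. Without Rop7-II replicate 1 that adjusted p was 0.00698, and without Rop7-II replicate 3 it was 0.00976, at the same difference. In the 7 other fits that left out 1 sample it was 0.0122 to 0.0504, and with the level of B-cell markers as a covariate 0.0355. The difference between Rop7-III and Rop7-II was 0.63 without Rop7-II replicate 1 (limma adjusted p = 5.506e-05), and that between Rop7-I and Rop7-II was 0.41 (limma adjusted p = 6.781e-04). Over 22 other settings, Rop7-III against Rop7-II stayed between 0.63 and 0.70, Rop7-I against Rop7-II between 0.41 and 0.47, and Rop7-III against Rop7-I between 0.19 and 0.26.

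The genes whose pattern over the 9 samples was most like that of Cd28 were Zfp746 (Pearson r = 0.992), Smad1 (r = 0.991) and St8sia6 (r = 0.989), computed on log2(TPM + 1). They were picked as the highest values among all tested genes and describe the likeness of the profiles only. Zfp746 encodes a zinc finger protein, Smad1 a transducer of bone morphogenetic protein signals and St8sia6 a sialyltransferase. St8sia6 averaged 24.1 TPM in Rop7-I, 10.3 in Rop7-II and 35.4 in Rop7-III. Smad1 averaged 18.1, 12.5 and 21.2 TPM in the same order.

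Ctla4, the inhibitory relative of Cd28, lies 113.6 kb downstream of it on chromosome 1 from 60887000 to 60915832, with no protein-coding gene between them. Its level was 21.8, 31.7 and 29.1 TPM in Rop7-I, 28.5, 26.0 and 34.9 TPM for Rop7-II, and 21.1, 18.7 and 20.7 TPM in Rop7-III. All Rop7-III samples lay below all samples of the other clones, whose ranges overlapped. The log2 difference was -0.53 against Rop7-II (95% interval -0.85 to -0.21, limma adjusted p = 0.0235) and -0.42 against Rop7-I (-0.73 to -0.10, limma adjusted p = 0.0860), so neither was called. Rop7-I against Rop7-II gave -0.12 (-0.43 to 0.20). Without Rop7-II replicate 1 the difference of Rop7-III against Rop7-II was -0.56 (limma adjusted p = 0.0411) and that of Rop7-I against Rop7-II -0.14.

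Regulatory T cells also carry CTLA-4. Foxp3, the factor that defines them, ranged from 1.54 to 1.77 TPM in Rop7-I and from 1.12 to 5.00 in Rop7-II. It was at 0.74 to 0.99 TPM in Rop7-III, so that it too was lowest in all samples of that clone. Its highest value, 5.00 TPM, was in Rop7-II replicate 1, where Ctla4, at 28.5 TPM, lay within the range of the clone's other samples. Cd4 was not lowest in Rop7-III, with 0.25 to 0.63 TPM there and 0.12 to 0.55 TPM in Rop7-I. Cd40lg, which activated CD4 T cells express, was instead highest in Rop7-III, with 2.90 to 3.70 TPM against at most 0.70 elsewhere. The part of such cells in the Ctla4 values was not tested. Chosen after the values were seen and given without a test, the ratio of Cd28 to Ctla4 in TPM was 7.39, 8.10 and 7.73 in Rop7-III, 5.93, 4.13 and 4.79 in Rop7-I, and 3.29, 3.76 and 2.93 in Rop7-II. These 3 sets of ratios did not overlap.

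Icos, an inducible costimulatory receptor of the same family, lies 62.1 kb further along chromosome 1, from 60977927 to 61000320, again with no protein-coding gene in the gap. Its level was 41.8, 42.3 and 40.6 TPM in Rop7-I, 35.3, 35.5 and 33.5 TPM for Rop7-II, and 38.5, 36.1 and 40.4 TPM in Rop7-III. The samples of each clone were close to each other, and Rop7-I, Rop7-III and Rop7-II followed in that order without overlap. Rop7-I exceeded Rop7-II by 0.25 on the log2 scale (95% interval 0.14 to 0.36, limma adjusted p = 0.00840), a 1.19-fold level. This call is close to its limit: it was lost in 14 of 22 other settings, a 2-fold minimum among them, with adjusted p values up to 0.0375. It was lost on leaving out any single sample of Rop7-I or Rop7-II, or Rop7-III replicate 1, at differences of 0.22 to 0.27, and without Rop7-II replicate 1 the adjusted p was 0.0153. Rop7-III differed from Rop7-II by 0.14 (0.03 to 0.25, limma adjusted p = 0.0709; 0.15 without that library) and from Rop7-I by -0.11 (-0.22 to -0.0035, limma adjusted p = 0.166).

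So Cd28, Ctla4 and Icos, which are neighbours on chromosome 1, had their highest means in different clones. Cd28 was highest in Rop7-III, Icos in Rop7-I, and the mean of Ctla4 in Rop7-II. Not every step of these orders was called: Ctla4 was called in no pair, Icos only between Rop7-I and Rop7-II, and Cd28 not between Rop7-III and Rop7-I. Whether the orders differ from each other was not tested.

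**Figure D2:**
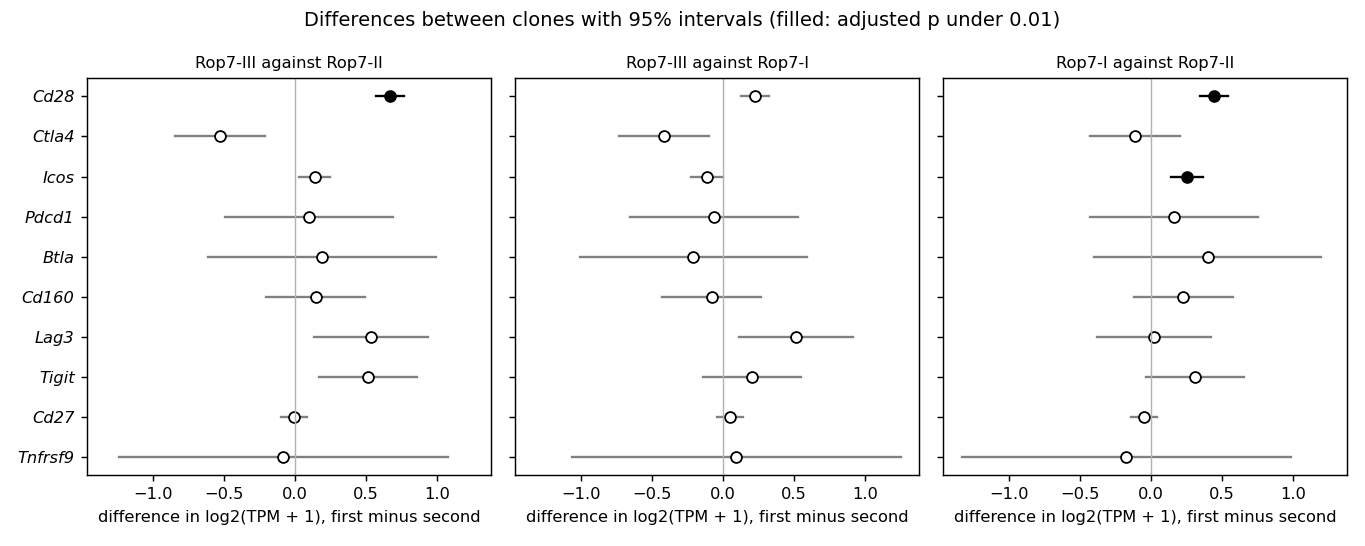
Log2 difference of the level (x axis, on the log2(TPM + 1) scale) of the 10 receptor genes in the 3 pairs of clones, with limma's 95% interval as a horizontal bar and filled points for adjusted p under 0.01. Cd28 lies at 0.66 for Rop7-III against Rop7-II and 0.44 for Rop7-I against Rop7-II, and Tnfrsf9 and Btla have the widest intervals.

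Btla encodes an inhibitory receptor for the TNF receptor family member HVEM and is also abundant on B cells. The gene lies on chromosome 16 from 45224315 to 45257670. It was at 12.1, 16.4 and 13.8 TPM in Rop7-I, at 22.1, 6.51 and 7.46 TPM for Rop7-II, and at 11.5, 13.7 and 10.9 TPM in Rop7-III. Rop7-II thus held both the highest sample, replicate 1, and the 2 lowest. The level in replicate 1 was 3.17 times the mean of the other 2 samples of the clone.

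With all 9 samples no difference of Btla was called: Rop7-III against Rop7-II gave 0.19 (95% interval -0.61 to 0.99, limma adjusted p = 0.729), although the Rop7-III mean was 12.01 TPM and the Rop7-II mean 12.03 TPM. Without Rop7-II replicate 1 both other clones exceeded Rop7-II, Rop7-III by 0.70 (limma adjusted p = 0.00748) and Rop7-I by 0.91 (limma adjusted p = 0.00329), with 2 samples left in Rop7-II. With the B-cell marker level as a covariate and all 9 samples, the values were 0.60 (limma adjusted p = 0.00174) and 0.19 (limma adjusted p = 0.159). In that fit Rop7-III exceeded Rop7-I by 0.42 (limma adjusted p = 0.0277), where the fit without the covariate gave -0.21. The B-cell sums of Rop7-I (155 to 392 TPM) and Rop7-III (64.7 to 130 TPM) did not overlap. The value of 0.42 therefore rests on carrying the fitted slope across that gap. Read after the values were seen, the sample with the highest B-cell sum within Rop7-I and within Rop7-III had the highest Btla level. The remaining samples followed the B-cell sum in Rop7-I but not in Rop7-III. There replicate 1 had a B-cell sum of 64.7 TPM with Btla at 11.5 TPM, and replicate 3 had 83.2 TPM with Btla at 10.85 TPM. The part of B cells in these values was not tested beyond this covariate.

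**Figure D3:**
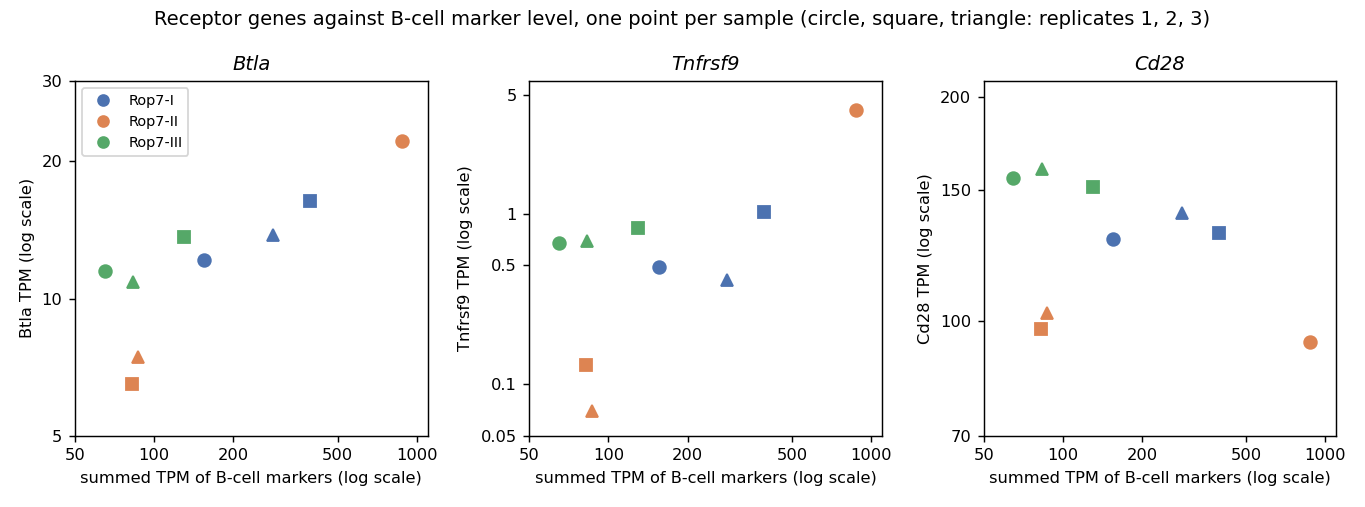
Level in TPM of Btla, Tnfrsf9 and Cd28 (y axes, log scale) against the summed TPM of 12 B-cell markers (x axis, log scale), 1 point per sample, coloured by clone and shaped by replicate. Rop7-II replicate 1, at a B-cell sum of 877 TPM, has the highest Btla (22.1 TPM) and Tnfrsf9 (4.08 TPM) of the 9 samples but the lowest Cd28 (93.6 TPM).

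Pdcd1 encodes PD-1, an inhibitory receptor that activated and chronically stimulated T cells carry. The gene lies on chromosome 1 from 94038305 to 94052553, on the minus strand. It was at 0.45, 1.17 and 0.94 TPM in Rop7-I, at 1.35, 0.21 and 0.53 TPM for Rop7-II, and at 0.74, 0.60 and 0.92 TPM in Rop7-III. The clones overlapped, the highest and the lowest sample were both of Rop7-II, and 2 of 9 samples exceeded 1 TPM. The differences were 0.10 for Rop7-III against Rop7-II (95% interval -0.49 to 0.69), -0.06 for Rop7-III against Rop7-I (-0.65 to 0.53) and 0.16 for Rop7-I against Rop7-II (-0.43 to 0.75), none of them called. Without Rop7-II replicate 1 the first was 0.36 (limma adjusted p = 0.256) and the last 0.43 (limma adjusted p = 0.202).

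Of the other receptors with immunoglobulin domains, Tigit, an inhibitory receptor for CD155, lies on chromosome 16 from 43648867 to 43664146 and was low but above 1 TPM in every sample. It was at 2.35, 2.22 and 1.63 TPM in Rop7-I, at 1.82, 1.37 and 1.23 TPM for Rop7-II, and at 2.77, 2.64 and 2.14 TPM in Rop7-III. All Rop7-III samples were above all Rop7-II samples, and Rop7-I overlapped with both. The difference between Rop7-III and Rop7-II was 0.51 (95% interval 0.16 to 0.86, limma adjusted p = 0.0387), which was not called. It was 0.61 without Rop7-II replicate 1 (limma adjusted p = 0.0216). Rop7-III against Rop7-I gave 0.20 (-0.14 to 0.55) and Rop7-I against Rop7-II gave 0.31 (-0.04 to 0.66), or 0.41 without that library.

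Lag3, whose product binds MHC class II and restrains T cells, lies on chromosome 6 from 124904361 to 124911705. It was at 0.43, 0.42 and 0.42 TPM in Rop7-I, at 0.69, 0.20 and 0.37 TPM for Rop7-II, and at 1.15, 1.08 and 0.88 TPM in Rop7-III. Every Rop7-III sample exceeded every sample of the other clones. Lag3 entered the test only through Rop7-III samples above 1 TPM, so the filter favoured this order in advance. The log2 difference was 0.53 against Rop7-II (95% interval 0.13 to 0.93, limma adjusted p = 0.0561) and 0.51 against Rop7-I (0.11 to 0.92, limma adjusted p = 0.0922), neither called. Without Rop7-II replicate 1 these had adjusted p values of 0.0140 and 0.0320 at differences of 0.67 and 0.51. Rop7-I against Rop7-II gave 0.02 (-0.38 to 0.42) with all samples and 0.15 without that library. At such levels the scale of log2(TPM + 1) understates ratios: mean levels of 1.04 TPM for Rop7-III, 0.423 for Rop7-I and 0.420 for Rop7-II lie further apart.

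Cd160, a further receptor for HVEM, lies on chromosome 3 from 96798763 to 96829351 and overlaps Pdzk1 on the other strand. Its values ran from 1.2 to 2.06 TPM in Rop7-I, from 1.13 to 1.22 in Rop7-II and from 1.29 to 1.60 in Rop7-III. Rop7-III lay just above Rop7-II without overlap, and Rop7-I spanned the whole range of Rop7-III. No difference was called, the largest being 0.23 for Rop7-I against Rop7-II (95% interval -0.12 to 0.58). It was 0.21 without Rop7-II replicate 1, and Rop7-III against Rop7-II went from 0.14 to 0.13. This overlap is of whole gene spans, and whether exons overlap was not examined. The library did not record strand, so reads from any shared exon could not be assigned to either gene with certainty. Pdzk1 was listed at 3.76 to 6.13 TPM.

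Cd27, a costimulatory member of the TNF receptor superfamily, lies on chromosome 6 from 125232622 to 125237010 and overlaps Vamp1 (78.4 to 104 TPM) on the other strand. It was the most abundant of the 10 receptors and the steadiest between clones, with 494, 473 and 505 TPM in Rop7-I, 490, 498 and 541 TPM for Rop7-II, and 507, 500 and 510 TPM in Rop7-III. The clones overlapped in every pair. The differences were -0.01 for Rop7-III against Rop7-II (95% interval -0.10 to 0.08), 0.04 for Rop7-III against Rop7-I (-0.05 to 0.14) and -0.05 for Rop7-I against Rop7-II (-0.14 to 0.04). The first was -0.036 and the last -0.08 when Rop7-II replicate 1 was left out. The called Cd28 differences of 0.66 and 0.44 lie outside the Cd27 intervals of the same pairs. Cd27 was set beside Cd28 as the steadiest receptor, and a difference between the genes was not tested.

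Tnfrsf9 encodes 4-1BB, a costimulatory receptor that T cells induce on activation and that some myeloid cells and regulatory T cells also carry. The gene lies on chromosome 4 from 150914562 to 150946102 and overlaps Camta1 (6.13 to 8.39 TPM) on the other strand. Its level was 0.49, 1.03 and 0.41 TPM in Rop7-I, 4.08, 0.13 and 0.07 TPM for Rop7-II, and 0.67, 0.83 and 0.69 TPM in Rop7-III. As with Btla and Pdcd1, Rop7-II replicate 1 was the highest of the 9 samples, here at 40.8 times the mean of the other 2 Rop7-II samples, which were the lowest. With all samples the difference between Rop7-III and Rop7-II was -0.08 (95% interval -1.24 to 1.08), and without Rop7-II replicate 1 it was 0.65 (limma adjusted p = 0.0399), so that even its sign rests on that library. Rop7-I against Rop7-II likewise moved from -0.18 to 0.56 (limma adjusted p = 0.0778). Rop7-III against Rop7-I gave 0.09 (-1.07 to 1.25), and 0.95 with the B-cell marker level as a covariate (limma adjusted p = 0.0261), which was not called. As for Btla, that covariate fit spans clones whose B-cell sums did not overlap.

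To judge the detection of the weak receptors, 20 genes typical of other tissues, such as Alb, Ins2 and Gfap, were read from the same table. Of their 180 values 135 were listed at 0, and 10 of the 20 genes were at 0 in all samples. In contrast, no value of a receptor was at 0. Pdcd1 and Lag3 were above 0.1 TPM in all 9 samples and Tnfrsf9 in 8 of 9, while 16 of the 20 genes of other tissues had a mean under 0.1 TPM. The floor is not clean, however. Nphs1 averaged 3.64 TPM, Pomc 0.984 and Syp 0.919, so a value near 1 TPM does not by itself separate a receptor from such genes. The table holds no read counts, and the number of reads behind each of these values is unknown.

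**Figure D4:**
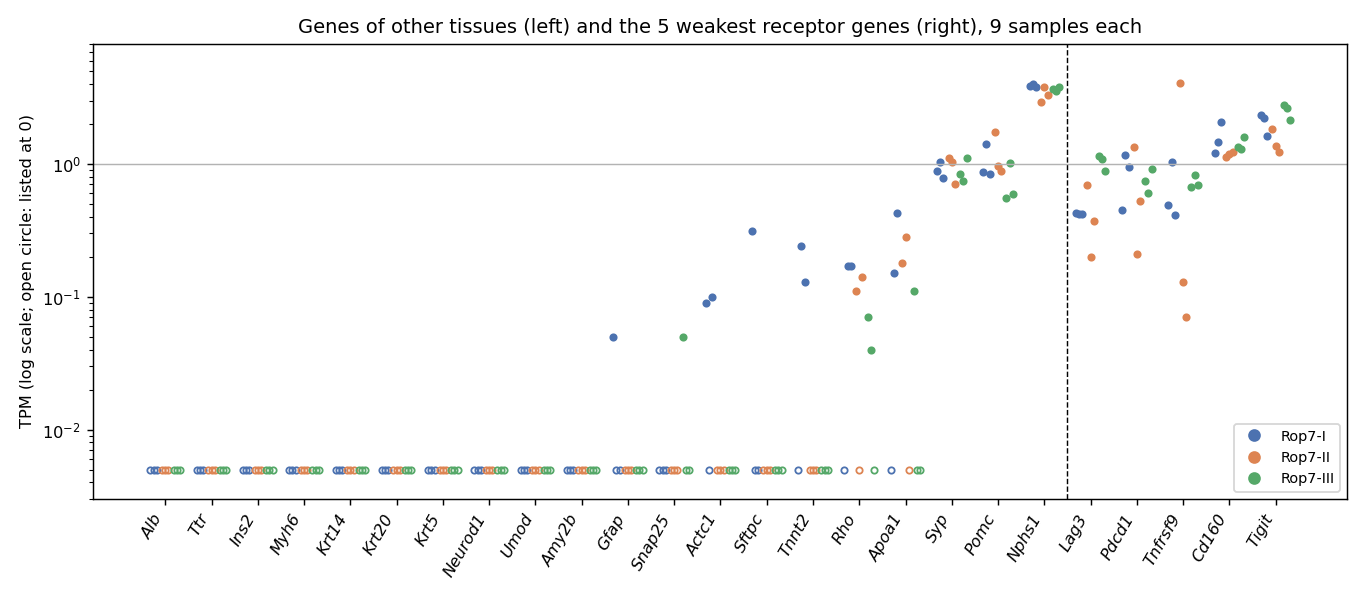
Level in TPM (y axis, log scale) in the 9 samples of 20 genes typical of other tissues, left of the dashed line, and of the 5 weakest receptors, right of it, coloured by clone, with values listed at 0 drawn as open circles and a grey line at 1 TPM. No value of the 5 receptors is at 0, whereas 135 of 180 values of the other genes are, and Nphs1, Pomc and Syp reach the level of the receptors.

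Beyond the 10 receptors, 55 further genes of costimulation and coinhibition were listed by role, of which 48 were tested. Between Rop7-III and Rop7-II, 9 were called, of which 5 were higher and 4 lower (18.8% against 12.3% of all genes). Between Rop7-III and Rop7-I, 5 were called, 1 higher and 4 lower (10.4% against 4.85%), and between Rop7-I and Rop7-II also 5, of which 4 were higher and 1 lower in Rop7-I (10.4% against 7.53%). Their median log2 differences were -0.12, -0.08 and -0.03 in the same order, against -0.02, -0.0035 and -0.0088 for all tested genes. The count between Rop7-III and Rop7-I fell to 1 without Rop7-I replicate 1 or 2, to 2 without Rop7-I replicate 3 or Rop7-III replicate 1 or 2, and to 3 without Rop7-III replicate 3. That between Rop7-I and Rop7-II fell to 2 and 3 without Rop7-I replicates 1 and 2. Without Rop7-II replicate 1 the counts were 12, 5 and 5, which held 8 of the 9, all 5 and 4 of the 5 genes called with all samples. The exceptions were Ly9 in Rop7-III against Rop7-II (0.28, limma adjusted p = 0.0129) and Lck in Rop7-I against Rop7-II (-0.20, limma adjusted p = 0.0101), and every called gene kept its direction.

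Among 14 tested receptors of the immunoglobulin superfamily, Cd2, an adhesion and costimulatory receptor, followed the order of Cd28 with 329 TPM in Rop7-I, 251 in Rop7-II and 366 in Rop7-III. It exceeded the Rop7-II level by 0.54 in Rop7-III (limma adjusted p = 1.519e-05) and by 0.39 in Rop7-I (limma adjusted p = 1.318e-04). Lair1, an inhibitory receptor for collagen, was also lowest in Rop7-II, at 3.77 TPM against 6.57 in Rop7-III (limma adjusted p = 0.00307) and 7.01 in Rop7-I (limma adjusted p = 0.00256). Of the SLAM family of adhesion receptors, Slamf6 was highest in Rop7-I (348 TPM against 285 in Rop7-III and 295 in Rop7-II), and both of its pairs with Rop7-I were called. Cd84 was higher in Rop7-III than in Rop7-I by 0.37 (limma adjusted p = 0.00439), and Ly9 in Rop7-III exceeded Rop7-II by 0.27 (limma adjusted p = 0.00791). Cd226, the activating receptor that shares CD155 with TIGIT, was lower in Rop7-III than in Rop7-I, at 127 against 155 TPM (limma adjusted p = 0.00680). None of the 4 other tested TNF receptors was called by limma in any pair, and 2 had an unadjusted p under 0.05, both for Rop7-III against Rop7-II, where 37.8% of all genes did.

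Of 17 listed ligands 11 were tested. Cd274, which encodes the PD-1 ligand PD-L1, averaged 12.6 TPM in Rop7-III against 20.7 in Rop7-II (log2 difference -0.67, limma adjusted p = 0.00169) and 22.3 in Rop7-I (-0.78, limma adjusted p = 0.00157). Pvr, which encodes CD155, averaged 7.99 TPM in Rop7-III against 15.6 in Rop7-II (-0.88, limma adjusted p = 6.683e-04). The ligands of CD28 and CTLA-4 were near the floor, with Cd80 at a mean of 0.277 TPM in Rop7-III and 0.677 in Rop7-II, and Cd86 at 0.773 and 1.79 TPM. Tnfrsf14, which encodes the BTLA and CD160 partner HVEM, was high, at 246 TPM in Rop7-III and 377 in Rop7-II, a difference of -0.64 that was not called (limma adjusted p = 0.0111), or -0.71 without Rop7-II replicate 1 (limma adjusted p = 0.0135). For Cd80 and Cd86 the difference between Rop7-III and Rop7-II moved from -0.31 to -0.0061 and from -0.43 to 0.13 without that library.

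Among 19 signalling partners, the subunits of phosphoinositide 3-kinase, which binds the tail of CD28, moved in opposite directions. The regulatory subunit Pik3r1 in Rop7-III exceeded Rop7-II by 0.39 (limma adjusted p = 3.675e-04), and the catalytic subunit Pik3cd differed by -0.30 (limma adjusted p = 8.073e-04). Traf1, an adaptor of TNF receptors such as 4-1BB, differed by -0.44 in the same pair (limma adjusted p = 0.00268). Pik3r1 was also higher in Rop7-I than in Rop7-II by 0.34 (limma adjusted p = 0.00119), Lck, the kinase that starts T cell receptor signalling, differed there by -0.19 (limma adjusted p = 0.00685), and Pik3cd in Rop7-III differed from Rop7-I by -0.22 (limma adjusted p = 0.00793). The list was read as counts only, and whether it stands apart from other genes was not tested.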

How the data were processed

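Splenic CD8 T cells of 3 clones were profiled by non strand-specific RNA-seq, with 3 biological replicates each; groups were taken from the labels. Per the labels and methods, the authors aligned and quantified reads with RSEM (1.2.11) against mouse mm10 and tested counts with DESeq2 (1.8.1). The values the authors deposited are TPM per gene and sample, which keep no counts, so read counts per gene could not be recovered from them. The study states a typical read depth, but not that of each sample. No column lacked a sample.

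Values were taken as log2(TPM + 1). Only genes that exceeded 1 TPM in some sample were kept. All 9 samples were fitted with limma 3.58.1 (R 4.3.3) with a mean-variance trend, and each pair was adjusted by the Benjamini-Hochberg method over all 12115 tested genes at a limit of 0.01. Differences are on the log2(TPM + 1) scale, and tests were two-sided. P values measure the spread between samples, since nothing states whether replicates share animals. Gene positions are from the GRCm38 annotation.

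The 10 members and all lists were chosen with earlier results of these data known. The text names all members, up to 5 called genes with the smallest adjusted p per list and pair, the 3 genes most like Cd28, and markers that touch a member, except 1 gene that is not reported here; Tnfrsf14, Cd80, Cd86, genes overlapping a member and genes of other tissues near the floor were named after their values were seen. Alternatives were other pseudocounts, filters and scalings, no trend, sample weights, only 2 clones, a replicate block, a B-cell covariate, other limits and each sample left out in turn.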

Additional observations from a re-analysis of the deposited data

How the results depend on the processing

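Of 651 combinations of a receptor, a pair and another setting, 594 kept direction and side of the limit, 13 gained a call, 16 lost one and 28 changed sign. The number of receptors called for Rop7-III against Rop7-II was 2 with the B-cell covariate, 3 at an adjusted p under 0.05 and 0 with a 2-fold minimum, and 1 to 2 on leaving out samples. For Rop7-III against Rop7-I it was 1 when every sample had to reach 1 TPM, and with quantile normalization, sample weights, only the 2 clones compared, the replicate block or a limit of 0.05, and 0 to 1 on leaving out samples. For Rop7-I against Rop7-II it was 1 with no filter, no trend, sample weights, only 2 clones, the replicate block or the covariate, 0 with a 2-fold minimum, and 1 to 2 on leaving out samples. Across the 3 clones it was 2 with the covariate, 3 at 0.05 and 1 to 2 on leaving out samples. The further genes called for Rop7-III against Rop7-II numbered 5 in a fit of only 2 clones, 23 at 0.05 and 0 with a 2-fold minimum, with 6 to 12 on leaving out samples. For Rop7-III against Rop7-I there were 3 with no filter, a common median, the replicate block or the covariate, 2 with no trend, 9 at 0.05 and 0 with a 2-fold minimum, with 1 to 5 on leaving out samples. For Rop7-I against Rop7-II there were 3 with no trend or only 2 clones, 11 at 0.05 and 0 with a 2-fold minimum, with 2 to 5 on leaving out samples. All genes called for Rop7-III against Rop7-II numbered 839 with only 2 clones, 3041 at 0.05, 206 with a 2-fold minimum and 811 to 1279 on leaving out samples. For Rop7-III against Rop7-I they numbered 1062 with sample weights, 373 with the replicate block, 1586 at 0.05, 128 with a 2-fold minimum and 240 to 786 on leaving out samples. For Rop7-I against Rop7-II they numbered 600 with no trend, 356 with only 2 clones, 2163 at 0.05, 115 with a 2-fold minimum and 409 to 811 on leaving out samples. These counts of all genes moved by over 1.5 times without any 1 sample of Rop7-III in the first pair, of Rop7-I or Rop7-III in the second and of Rop7-I in the third. The causes of these changes were not tested, apart from the stricter or looser limits.

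Signs changed only for differences that were not called. Pdcd1 in Rop7-III against Rop7-I was 0.0087 with quantile normalization and 0.28 with the covariate, and Btla in that pair 0.42 with the covariate. Lag3 in Rop7-I against Rop7-II was -0.0016 with quantile normalization and -0.032 with the covariate. Cd27 in Rop7-III against Rop7-II was 0.00043 with a common median and 0.011 with quantile normalization. Tnfrsf9 in Rop7-III against Rop7-II was 0.60 with a pseudocount of 0.1, 0.057 with 0.5, 0.24 with sample weights and 0.48 with the covariate, and in Rop7-I against Rop7-II it was 0.35 with a pseudocount of 0.1 and 0.16 with sample weights. On leaving out samples the ranges that crossed 0 were -0.22 to 0.038 for Ctla4 in Rop7-I against Rop7-II, -0.11 to 0.70 for Btla in Rop7-III against Rop7-II, -0.19 to 0.051 for Cd160 in Rop7-III against Rop7-I, -0.10 to 0.15 for Lag3 in Rop7-I against Rop7-II and -0.036 to 0.034 for Cd27 in Rop7-III against Rop7-II. Those of Pdcd1 were -0.12 to 0.36, -0.23 to 0.060 and -0.053 to 0.43, and those of Tnfrsf9 -0.47 to 0.65, -0.0088 to 0.25 and -0.56 to 0.56, for Rop7-III against Rop7-II, Rop7-III against Rop7-I and Rop7-I against Rop7-II. The causes were not tested. Scalings moved the median of all genes by at most 0.02.

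Replicate numbers did not pair the samples: deviations of same-numbered samples correlated between -0.388 and 0.107, over 0.1 in 1 of 9 cases, and 1 of 9 samples correlated best with its own number. With the replicate block, Cd28 was called in Rop7-III against Rop7-I (limma adjusted p = 0.00669) and Icos was not called in Rop7-I against Rop7-II (limma adjusted p = 0.0232). Receptors near 1 TPM are limited by unknown read counts, and differences of Btla, Pdcd1 and Tnfrsf9 by 1 library.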

Other observations

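Genes that mark activated or memory CD8 T cells were read beside the receptors. The summed level of 12 such genes was 148 to 155 TPM in Rop7-I, 118 to 144 TPM in Rop7-II and 178 to 196 TPM in Rop7-III, without overlap. Il2rb, called in no pair, was the largest single part of each sum, at 75.9 to 95.8 TPM. Of 10 tested genes, 3 were called for Rop7-III against Rop7-II (12.3% of all genes). For Rop7-III against Rop7-I and Rop7-I against Rop7-II it was 1 each (4.85% and 7.53%). The means of Gzmb and Nr4a1 were lowest in Rop7-III, with no difference called. Ccl5, a chemokine of memory CD8 T cells, averaged 28.8 TPM in Rop7-III against 4.14 in Rop7-II (limma adjusted p = 8.991e-05) and 7.74 in Rop7-I (limma adjusted p = 0.00174). Cxcr3, a chemokine receptor of such cells, averaged 4.72 TPM in Rop7-III against 0.343 in Rop7-II (limma adjusted p = 0.00151). Eomes, a transcription factor of memory CD8 T cells, was instead highest in Rop7-I, at 14.1 TPM against 2.34 in Rop7-II (limma adjusted p = 1.880e-04) and 6.82 in Rop7-III. Cd44, an adhesion molecule that rises on activation, was at 9.51, 1.85 and 2.68 TPM in Rop7-II, with its high value in the library that also had the highest Btla, Pdcd1 and Tnfrsf9. In the other 6 samples it ranged from 6.95 to 11.1 TPM. Without that library, Rop7-III exceeded Rop7-II by 2.93 in Ccl5 (limma adjusted p = 7.647e-06) and 2.33 in Cxcr3 (limma adjusted p = 9.017e-04), and Rop7-I exceeded it by 2.00 in Eomes (limma adjusted p = 3.085e-04), each called with all samples too.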
